A study of Homo sapiens with 6 samples.

Results

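The kallikreins are a family of secreted serine proteases whose genes lie side by side on the long arm of chromosome 19. RNA-seq gene counts for 10 of them were examined in C4-2, an established subline of the human prostate cancer line LNCaP, and in an enzalutamide-resistant line of C4-2, labelled Enz-R. Enzalutamide is an antiandrogen drug used in prostate cancer. Each group held 3 libraries of total RNA, parental replicates 1 to 3 and Enz-R replicates 1 to 3. The genes were chosen by symbol, as KLK1, KLK2, KLK3, KLK4, KLK5, KLK10, KLK11, KLK12, KLK15 and the pseudogene KLKP1, and all 10 were found among the 59565 loci of the count table. KLK1, KLK2, KLK3, KLK4, KLK15 and KLKP1 had enough counts to be tested, and KLK5, KLK10, KLK11 and KLK12 did not. The labels do not say whether Enz-R is 1 clone, whether its cells were in enzalutamide when they were collected, or whether the libraries of a group came from separate cultures. The spread behind each p-value is therefore that between libraries, and it may be technical. The locus holds 6 further kallikrein genes, KLK6, KLK7, KLK8, KLK9, KLK13 and KLK14, which are given for comparison.

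Kallikreins are made as inactive proenzymes that are switched on by cleavage, often by one another. In the prostate they are secreted into seminal fluid, where KLK3, known as prostate-specific antigen, cleaves the semenogelins and liquefies the semen clot. Androgen acts on enhancers and promoters of KLK3 and KLK2, so these transcripts are common readouts of androgen signalling in prostate cancer cells.

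The promoters of KLK3, KLK2 and KLK4 are shown first. Whether their sequences bear on the direction in which these genes moved was not tested. Each sequence runs from 250 bases before to 50 bases after a RefSeq start site on GRCh38.p14, 5′ to 3′ on the gene's own strand. The positions are chr19:50854665-50854964 (plus strand) for KLK3, chr19:50873189-50873488 (plus strand) for KLK2 and chr19:50911346-50911645 (minus strand) for KLK4. Capitals mark the 15 bases closest to the androgen response element consensus, where at least 9 of its 12 fixed letters match. That consensus is AGAACA, any 3 bases and TGTTCT, and it reads alike on both strands.
KLK3: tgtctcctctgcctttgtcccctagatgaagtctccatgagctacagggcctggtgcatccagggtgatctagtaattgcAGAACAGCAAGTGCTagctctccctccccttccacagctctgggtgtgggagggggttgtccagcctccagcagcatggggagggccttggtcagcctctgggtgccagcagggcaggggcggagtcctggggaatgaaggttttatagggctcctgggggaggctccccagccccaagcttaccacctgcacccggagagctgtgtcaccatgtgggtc
KLK2: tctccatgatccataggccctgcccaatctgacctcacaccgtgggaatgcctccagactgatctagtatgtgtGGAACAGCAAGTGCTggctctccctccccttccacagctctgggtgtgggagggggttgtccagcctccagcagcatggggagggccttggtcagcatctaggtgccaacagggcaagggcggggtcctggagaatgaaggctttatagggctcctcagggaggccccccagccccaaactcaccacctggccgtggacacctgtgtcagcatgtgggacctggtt
KLK4: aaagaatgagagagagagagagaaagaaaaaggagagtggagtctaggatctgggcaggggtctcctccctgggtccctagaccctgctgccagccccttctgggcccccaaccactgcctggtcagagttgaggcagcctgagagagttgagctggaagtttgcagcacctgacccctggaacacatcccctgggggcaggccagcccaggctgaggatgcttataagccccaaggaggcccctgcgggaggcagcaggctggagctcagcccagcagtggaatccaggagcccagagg
The KLK3 element matched 10 of 12 letters and began 170 bases before the start site. The KLK2 element matched 9 of 12 and began 176 bases before it. Counted from 1 at the 5′ end of the element, the change from KLK3 to KLK2 is A1G. The consensus differs from both at T10A and T13G. Of 35116 promoters of this length in the RefSeq table, 1.41% held a stretch with at least 10 matches and 10.8% one with at least 9. The 14 bases GAACAGCAAGTGCT, searched on both strands, occurred in 2 of the 35116 promoters, those of KLK3 and KLK2. They were taken from the KLK3 element, overlap the consensus match and are shared by the KLK2 element. Both hits were thus fixed in advance, and the count is no evidence about the response element. The best match in the KLK4 promoter shown had 7 of 12 letters, and that at a second KLK4 start site, 50910738, had 6. The first 6 letters alone, AGAACA, or TGTTCT on the other strand, was in the KLK3 promoter and in 14.8% of all promoters. GGAACA, or TGTTCC on the other strand, was in those of KLK2 and KLK4 shown and in 4925 of all 35116. Aligned end to end, the KLK3 and KLK2 promoters were 79.3% identical and shared an unbroken run of 80 bases, and each was 43.6% to 47.0% identical to the KLK4 promoters. The best match was 7 of 12 letters for KLK15 and 8 of 12 for KLK14, and 47.0% of all promoters held a stretch with at least 8. KLK1 and KLKP1 had no promoter among those searched. A letter match is a description of these windows and does not show that a factor binds there.

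Library totals ran from 15673404 to 28247038 counts. Mitochondrially encoded genes took 8.78% to 11.3% of the counts in the parental libraries and 14.5% to 15.5% in the Enz-R libraries. Of 7 luminal prostate markers none was at 0 in any library, and their summed level was 2785 to 2856 CPM in the parental and 1987 to 2138 CPM in the Enz-R libraries, with 4 called higher and 3 lower. CPM is a count relative to the library's total after scaling by TMM factors, which balance the bulk of genes between libraries. Of 12 markers of immune, fibroblast, endothelial and basal cells 1 to 8 were at 0 in a library, and their summed level was 7.76 to 8.44 CPM in the parental and 5.59 to 6.67 CPM in the Enz-R libraries. Of these 12, 4 were tested and 2 were called lower. KRT14, called lower, had 17, 14 and 16 parental counts and 0 in each Enz-R library. It had enough counts to be tested only through the parental group. Of the 3 markers with enough counts in both groups, 1 was called lower. Over all 19029 tested genes 32.4% were called higher and 32.3% lower. Parental replicate 1, the deepest library, had the highest CPM of its group for each of the 6 tested kallikreins. With it left out, the log2 fold changes were -0.88 for KLK3, -0.54 for KLK2 and 0.65 for KLK4, and no call was lost.

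KLK3 and KLK2, the pair that encodes prostate-specific antigen and its trypsin-like activator, were lower in Enz-R. KLK3 (ENSG00000142515, GRCh38 chromosome 19, 50854915 to 50860764) stood at 5056, 4644 and 4606 CPM in the parental and 2603, 2518 and 2478 CPM in the Enz-R libraries. The groups did not overlap, and the lowest parental library was well above the highest Enz-R library. Its mean went from 4768 ± 249 to 2533 ± 63.9 CPM (SD, n = 3 each), with a log2 fold change of -0.91 ± 0.08 (SE), or 1.88-fold lower, at an edgeR adjusted p = 5.56e-08. In bulk RNA, fewer cells with a transcript and less of it per cell cannot be told apart. KLK2 (ENSG00000167751, 50861568 to 50880567) stood at 337, 297 and 304 CPM in the parental and 211, 206 and 205 CPM in the Enz-R libraries. These groups did not overlap either, and the Enz-R libraries lay within a few CPM of one another. The log2 fold change of KLK2 was -0.59 ± 0.06, 1.51-fold lower (edgeR adjusted p = 1.03e-06). These changes are within a broad shift, since edgeR called 32.3% of the 19029 tested genes lower and 32.4% higher, 64.8% in all, at an adjusted p under 0.05. In the order of log2 fold changes from the lowest, KLK3 was at the 10.1 percentile of tested genes and KLK2 at the 18.4 percentile.

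KLK4, a protease best known from tooth enamel and also made in the prostate, was higher in Enz-R. KLK4 (ENSG00000167749, 50906352 to 50910738) stood at 397, 333 and 325 CPM in the parental and 505, 516 and 533 CPM in the Enz-R libraries. All Enz-R libraries were above all parental ones, and the parental spread came mainly from replicate 1. The mean rose from 352 ± 39.4 to 518 ± 14.1 CPM (SD, n = 3 each), with a log2 fold change of 0.56 ± 0.08 or 1.47-fold (edgeR adjusted p = 1.25e-05). It was at the 77.4 percentile of tested genes. In raw counts KLK4 went from 24726 over the parental group to 28060 over the shallower Enz-R group, while KLK3 went from 332293 to 138087.

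**Figure D1:**
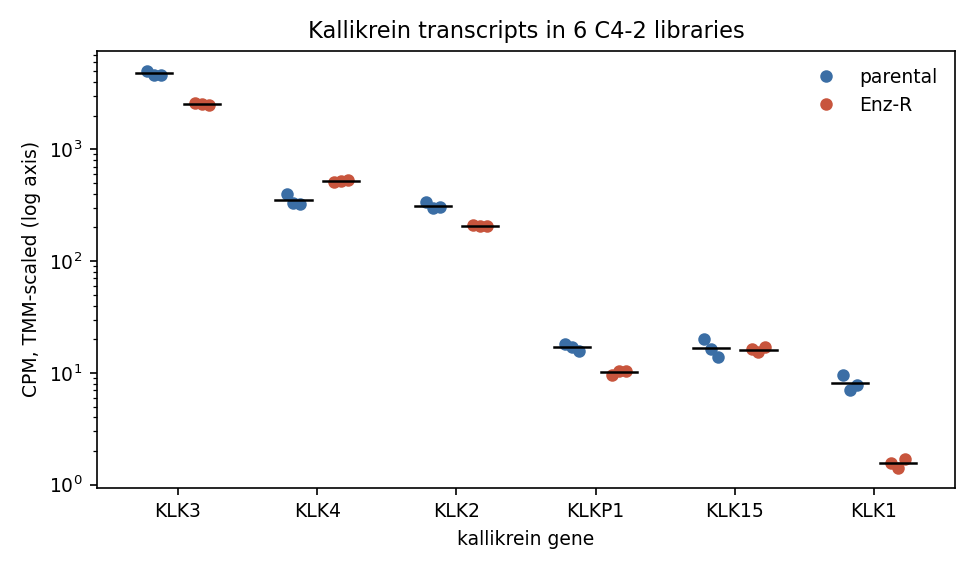
CPM (log axis) of the 6 tested kallikrein genes in each library, with points for libraries and bars for group means. KLK3, KLK2, KLKP1 and KLK1 were lower in all 3 Enz-R libraries, KLK4 was higher in all 3, and KLK15 overlapped between the groups.

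KLK1, which encodes tissue kallikrein, the enzyme that releases kinin peptides from kininogen, had the largest fall of the tested kallikreins. KLK1 (ENSG00000167748, 50819148 to 50823787) stood at 9.58, 7.06 and 7.81 CPM in the parental and 1.55, 1.41 and 1.68 CPM in the Enz-R libraries. The groups were far apart, though the gene is weakly expressed, with 576 parental and 84 Enz-R counts in all. Its log2 fold change was -2.40 ± 0.18, 5.28-fold lower (edgeR adjusted p = 2.04e-08), at the 1.84 percentile of tested genes. KLKP1 (ENSG00000197588, 50882096 to 50896398), a transcribed pseudogene between KLK2 and KLK4, stood at 18.1, 17.1 and 15.7 CPM in the parental and 9.59, 10.4 and 10.4 CPM in the Enz-R libraries. The groups did not overlap, and KLKP1 was 1.68-fold lower, a log2 fold change of -0.75 ± 0.10 (edgeR adjusted p = 1.21e-05). KLK15 (ENSG00000174562, 50825289 to 50837213), whose product can activate the KLK3 proenzyme in the test tube, stood at 19.95, 16.4 and 13.9 CPM in the parental and 16.2, 15.3 and 16.9 CPM in the Enz-R libraries. The Enz-R values lay inside the parental range, and KLK15 was not called, with a log2 fold change of -0.06 ± 0.12 (edgeR adjusted p = 0.660). Without parental replicate 1 the value was 0.08 and was not called either. An antisense RNA, AC011523.1, overlaps KLK15 without sharing exon bases and was itself not called (-0.26, edgeR adjusted p = 0.505). Of the 6 tested kallikreins 1 was thus called higher and 4 lower, against 64.8% of all tested genes called in either direction. The groups did not overlap in 5 of the 6, against 68.9% of all tested genes.

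KLK5, KLK10, KLK11 and KLK12 had 13 counts or fewer in each group. KLK5, an epidermal protease, had 1 count in the parental libraries together and 2 in the Enz-R libraries. KLK10 had 3 and 1, and KLK11 had 2 and 1. These totals are at or under 3 counts, the limit that a count of 0 allows, which is 0.0434 CPM for the pooled parental and 0.0552 CPM for the pooled Enz-R libraries, so no difference was detectable at this depth. KLK12, above that limit in the parental group only, had 7, 2 and 4 counts in the parental libraries and 0 in each Enz-R library, at least 3.4-fold lower against that floor. KLK12 was below the count filter. It was called lower with no filter (edgeR adjusted p = 0.00705) and by DESeq2 (adjusted p = 0.0444). Of the 6 further kallikreins, KLK9 and KLK13 had 0 counts in every library. KLK6 had group totals of 1 and 0 counts (parental, then Enz-R), KLK7 2 and 3, and KLK8 6 and 1. KLK14 (51077495 to 51084245), the last gene of the row and an activator of other kallikreins in skin, had 9, 4 and 11 counts in the parental and 46, 27 and 18 in the Enz-R libraries. This is 0.350 ± 0.171 against 1.62 ± 0.469 CPM, a log2 fold change of 2.23 ± 0.36 (edgeR adjusted p = 6.71e-05), and the groups did not overlap. KLK14 passed the count filter only through the Enz-R group, so a difference in that direction was needed for it to be tested at all.

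Ratios taken within a library need no scaling between libraries, and they show how far KLK4 parted from KLK2 and KLK3. For every 100 counts of KLK3 there were 7.86, 7.18 and 7.06 counts of KLK4 in the parental and 19.4, 20.5 and 21.5 in the Enz-R libraries. The mean log2 ratio of KLK4 to KLK3 went from -3.77 ± 0.08 to -2.29 ± 0.07, a shift of 1.48 or 2.78-fold. For every 100 counts of KLK2 there were 118, 112 and 107 counts of KLK4 in the parental and 239, 250 and 260 in the Enz-R libraries, a 2.22-fold shift. KLK2 changed less against KLK3, from 6.66, 6.40 and 6.61 to 8.12, 8.19 and 8.28 counts for every 100 of KLK3, a 1.25-fold shift. KLKP1 lies next to KLK4 on the same strand but moved the other way: its counts for every 100 of KLK4 went from 4.55, 5.14 and 4.82 to 1.90, 2.01 and 1.95, 2.47-fold lower. In none of the 4 ratios did the groups overlap. The exact two-sided permutation test gave p = 0.10 for each, the smallest that 3 libraries against 3 allow, and 0.10 after adjustment over the 4 ratios.

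**Figure D2:**
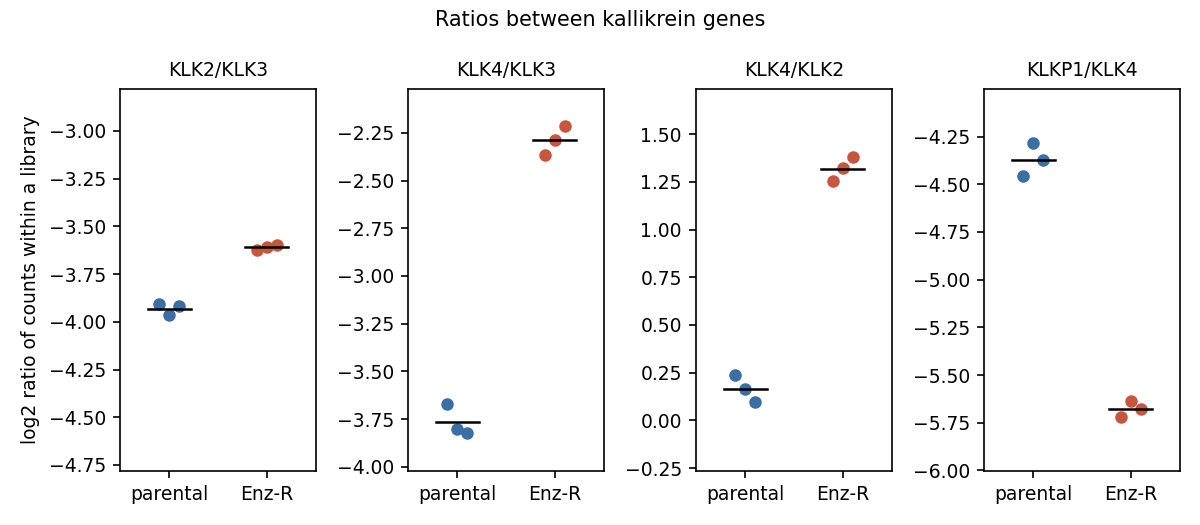
Log2 ratio of counts between pairs of kallikrein genes within each library, with points for libraries and bars for group means. The panels have different limits but the same span, and KLK4/KLK3 moved from a mean of -3.77 to -2.29 while KLK2/KLK3 moved from -3.93 to -3.61.

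The same contrasts were fitted across all genes with each library scaled to its own KLK3 count. On that scale KLK4 was higher by 1.47 ± 0.08 (log2, edgeR adjusted p = 1.05e-14) and KLK2 by 0.32 ± 0.07 (edgeR adjusted p = 0.000255), so both fell less than KLK3 or rose. KLK15 was higher by 0.86 ± 0.12 (edgeR adjusted p = 3.11e-07). KLK3 fell more than most genes, and 80.5% of tested genes were called higher and 5.30% lower relative to it. A call of higher on this scale is therefore near the background, and the contrast between KLK4 and KLK2 lies in the sizes of their values. KLK1 was lower relative to KLK3, at -1.49 ± 0.19 (log2, edgeR adjusted p = 7.42e-08). KLKP1 had a value of 0.17 ± 0.12 and was not shown to differ from KLK3 (edgeR adjusted p = 0.197). With KLK2 as the reference, KLK4 was higher by 1.15 (edgeR adjusted p = 3.18e-14).

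Summed over the 10 genes, kallikreins took 0.564% ± 0.0255 of all counts in parental cells, and 0.317% ± 0.00325 in Enz-R cells (SD over 3 libraries). Within that sum KLK3 went from 87.1% ± 0.435 to 77.1% ± 0.707, KLK4 from 6.41% ± 0.342 to 15.8% ± 0.666, and KLK2 from 5.71% ± 0.103 to 6.32% ± 0.00327. The smaller members KLK15 (0.305% to 0.491%), KLKP1 (0.310% to 0.308%) and KLK1 (0.148% to 0.0472%) made up nearly all of the remainder.

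**Figure D3:**
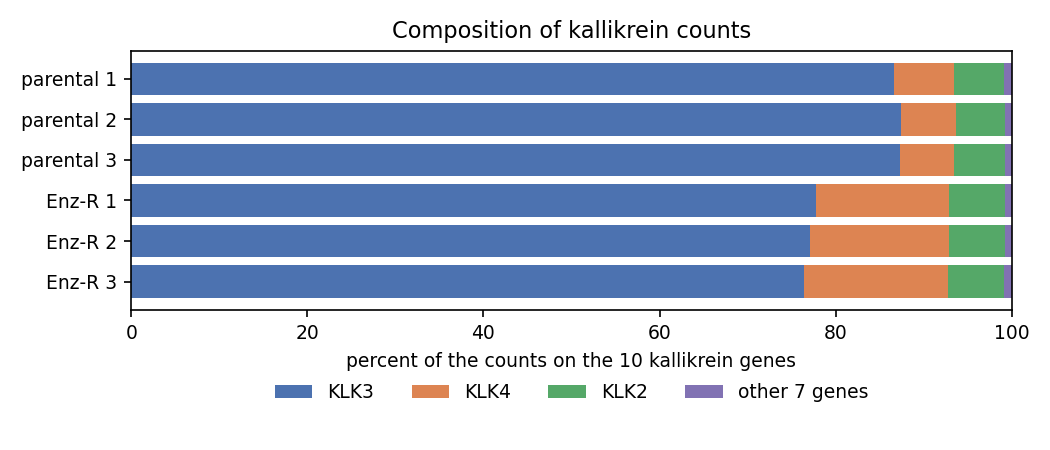
Percent of the counts on the 10 kallikrein genes that each gene took, 1 bar per library. KLK3 took 86.6% to 87.4% in the parental and 76.4% to 77.8% in the Enz-R libraries, and KLK4 6.17% to 6.8% and 15.1% to 16.4%.

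Levels of different genes were compared as CPM per kilobase of the principal transcript in GENCODE 29. In the parental group the order of these levels was KLK3 (3259 ± 170), KLK4 (261 ± 29.3), KLK2 (104 ± 6.98), KLK15 (19.6 ± 3.58), KLKP1 (11.1 ± 0.791) and KLK1 (9.41 ± 1.49). KLKP1 and KLK1 overlapped between libraries, and the other neighbours in that order did not. In the Enz-R group the order was the same, KLK3 (1731 ± 43.7), KLK4 (384.5 ± 10.4), KLK2 (68.8 ± 1.11), KLK15 (18.9 ± 0.937), KLKP1 (6.61 ± 0.300) and KLK1 (1.79 ± 0.156), with no overlap between neighbours. Per kilobase of all annotated exons, KLK15 (7.32) fell below KLKP1 (8.87) in the parental group, so their order depends on the length used. Even after its fall KLK3 had the highest level per kilobase of the family. Principal transcripts of KLK2 and KLK3 shared at most 60 bases without a mismatch, and no stretch of 100 bases was common to any pair of the 6 tested members. How the authors treated reads with several alignments is not given in the sources used here.

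The fall of KLK1, KLK3, KLK2 and KLKP1 stood among neighbours that were mostly higher. In the window from 500 kb before KLK1 to 500 kb after KLK14 (chromosome 19, 50319148 to 51584245), 34 genes other than kallikreins were tested, of which 23 were called higher, 2 lower (EMC10 and NAPSB) and 9 not called, with a median log2 fold change of 0.57. Over all tested genes the median was 0.01, and over the 1052 tested protein-coding genes of chromosome 19 it was 0.27, with 536 called higher and 238 lower. ASPDH, LRRC4B, SYT3, SHANK1 and CD33, all called higher, passed the count filter only through the Enz-R group, and AC063977.6 and AC008750.5, not called, only through the parental group. Of the 25 neighbours that reached the filter's minimum in all libraries of both groups, 18 were called higher and 2 lower, with a median of 0.57, a comparison added after seeing the data. Over all genes 16309 did so, of which 5271 were higher and 5434 lower. On the KLK1 side 16 of 20 tested genes were higher and 2 lower, and on the KLK14 side 7 of 13 were higher and none lower. The 5 genes that passed only through Enz-R are in these counts, 4 on the KLK1 side and 1 on the KLK14 side. With at least 50 counts required in 3 libraries, 15 neighbours were called higher. That filter also tests fewer neighbours, so 15 is not to be read beside 23 of 34.

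The nearest tested protein-coding gene on the KLK1 side, C19orf48P, was higher by 0.29 ± 0.06 (389 ± 10.4 to 475 ± 12.1 CPM, edgeR adjusted p = 0.000661). On the other side CTU1, which encodes a tRNA-modifying enzyme, was higher by 1.23 ± 0.12 (8.07 ± 0.402 to 18.9 ± 2.98 CPM, edgeR adjusted p = 4.05e-07). The largest rises at 5 CPM or more were those of TMEM277P (2.07 ± 0.17), SMIM47 (1.74 ± 0.17) and C19orf81 (1.45 ± 0.13). SMIM47 overlaps ACP4 on the other strand, and no source used here says whether counting used strand. EMC10, a subunit of the endoplasmic reticulum membrane complex, had a log2 fold change of -0.34 ± 0.07 (edgeR adjusted p = 0.000426). The rise of KLK4 (0.56) was close to the median of these neighbours (0.57), whereas KLK1, at -2.40, lay below every other tested gene of the window.

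**Figure D4:**
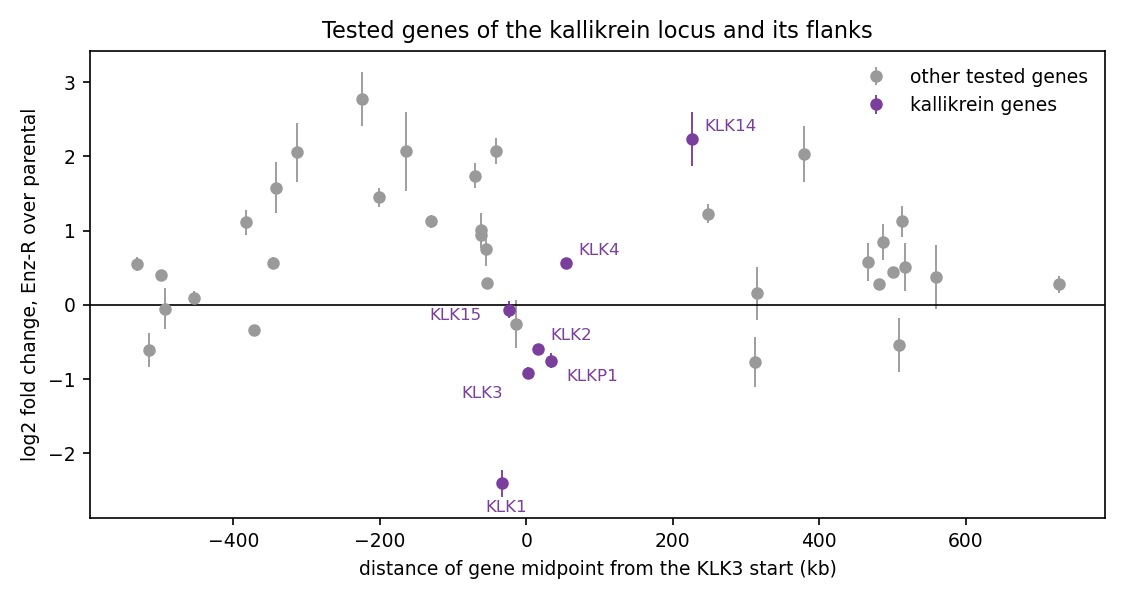
Log2 fold change (Enz-R over parental, ± SE) of each tested gene in the kallikrein window against the distance of its midpoint from the KLK3 start in kb. Kallikrein genes are purple and other genes grey. KLK1, KLK3, KLK2 and KLKP1 lie below 0, KLK4 and KLK14 above it, and 23 of the 34 other genes were called higher.

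Genes whose products act on kallikrein enhancers were mostly lower as transcripts. Of 15 listed factors and cofactors, all tested, 12 were called lower, 3 not called and none higher, with a median log2 fold change of -0.71, against 32.3% called lower and a median of 0.01 over all tested genes. The pioneer factor gene FOXA1 (-0.15 ± 0.07, edgeR adjusted p = 0.0673) and GATA2 (0.10 ± 0.06, edgeR adjusted p = 0.183) were among those not called. The homeobox gene HOXB13 fell from 496 ± 14.7 to 285 ± 27.7 CPM (-0.80 ± 0.07). The coactivator gene NCOA1 fell from 48.6 ± 3.28 to 17.1 ± 2.72 CPM (-1.50 ± 0.10).

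Other androgen-induced genes fell further than KLK3 and KLK2 in most cases. Of 25 listed, 23 were tested, 21 were lower, 1 higher (HPGD, from 0.366 to 1.49 CPM) and 1 not called. HPGD passed the count filter only through the Enz-R group. Over all tested genes 32.3% were called lower and 32.4% higher. The list's median log2 fold change was -1.58, against -0.91 for KLK3 and -0.59 for KLK2. TRPM8, an ion channel gene, fell most (-6.73 ± 0.15), followed by SLC45A3 (-3.84 ± 0.09) and by ACP3 (-3.00 ± 0.13), which encodes prostatic acid phosphatase, another secreted prostate marker. The list was drawn up with earlier results of these data known.

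Among 13 protease inhibitor genes only 4 were tested. SLPI, a secreted inhibitor of leukocyte serine proteases, rose from 20.7 ± 2.87 to 454 ± 66.3 CPM (4.45 ± 0.12, edgeR adjusted p = 1.31e-13). SPINT1, which inhibits membrane serine proteases, fell from 236 ± 12.8 to 155 ± 6.48 CPM (-0.60 ± 0.06). SPINT2 (-0.05 ± 0.07) and SERPINB6 (-0.10 ± 0.06) were not called. SERPINA3, the chief partner of prostate-specific antigen in blood, had 1 count in all 6 libraries together, and SERPINA5 had 0. Among the untested inhibitor genes, SPINK5, which inhibits kallikreins of the skin, had 13, 21 and 16 counts in the parental and 2, 1 and 0 in the Enz-R libraries, without overlap. The other untested ones had at most 7 counts in a library.

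Of 13 genes for kallikrein substrates, receptors and other seminal proteins, 10 were tested, 3 were higher, 3 lower and 4 not called. These shares are near the 32.4% higher and 32.3% lower of all tested genes and are no result about the list. PTHLH, called lower, passed the count filter only through the parental group. Of the 9 genes that reached the filter's minimum in all libraries of both groups, 3 were called higher and 2 lower. IGFBP3, a growth factor-binding protein that prostate-specific antigen can cleave, rose from 2.12 ± 0.226 to 308 ± 24.9 CPM (7.19 ± 0.10), and the protease-activated receptor gene F2RL1 rose by 0.36 ± 0.08. Fibronectin, FN1, fell from 314 ± 30.1 to 219 ± 3.74 CPM (-0.52 ± 0.07). The kinin receptor gene BDKRB2, whose ligand KLK1 helps to release, fell from 4.22 ± 0.118 to 1.59 ± 0.155 CPM (-1.41 ± 0.18, edgeR adjusted p = 6.93e-06). BDKRB2 was singled out after its value was seen. The other listed kinin receptor gene, BDKRB1, was not called (0.33 ± 0.28, edgeR adjusted p = 0.316). The kininogen gene KNG1, with 4 parental and 3 Enz-R counts in all, was not tested. The semenogelin genes SEMG1 and SEMG2, the natural substrates of KLK3, were below the count filter. SEMG2 had 0, 1 and 1 counts in the parental and 12, 5 and 5 in the Enz-R libraries. SEMG1 had 1 parental count and 8 Enz-R counts in all.

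**Figure D5:**
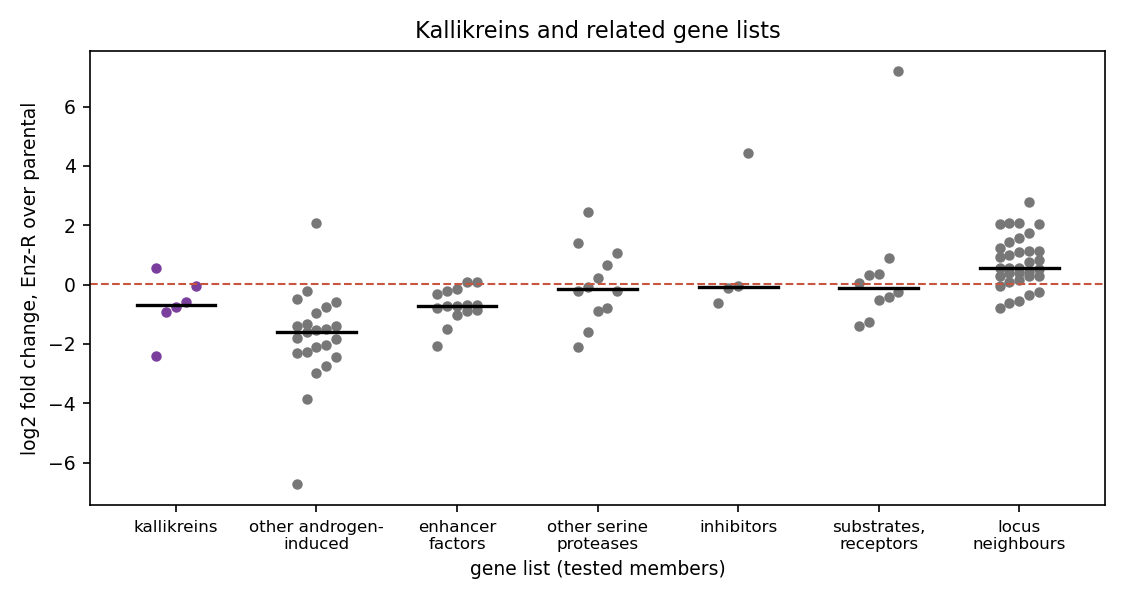
Log2 fold change (Enz-R over parental) of the tested genes of each list, with black bars for list medians and the dashed line for the median of all tested genes (0.01). The kallikreins spread from -2.40 to 0.56, the other androgen-induced genes have a median of -1.58 and the locus neighbours one of 0.57.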

How the data were processed

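RNA-seq libraries were made from total RNA with a NEBNext Ultra kit and sequenced as read pairs, per the labels' protocols. Per the submitters' processing notes, HISAT2 and GRCh38 were used. Which tool and annotation gave the counts, and whether strand was used, is not given in the sources used here. The deposited values are raw counts per gene, made by the authors before any scaling. Identifiers were matched to GENCODE 29, which held all 58676 Ensembl identifiers of the table, and promoters came from RefSeq (GRCh38.p14).

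The quasi-likelihood test of edgeR 4.0.16 (R 4.3.3) compared the groups, after filterByExpr and TMM and with no covariate, with Benjamini-Hochberg adjustment over 19029 genes and a threshold of 0.05. SEs were derived from the F statistic. A second fit used each library's KLK3 count as its size. Neither fit tested a gene list. Genes named are all kallikreins, the called genes of each list with the largest changes (at most 3 each way, at least 5 CPM), and the nearest neighbours. FOXA1, GATA2, HPGD, NAPSB, BDKRB2 and the named genes that were not called or not tested, or that passed the filter through 1 group, were added after their values were seen. Some genes of the lists are not reported here. The members and lists were chosen with earlier results of these data known. Alternatives were a replicate block, leaving out each library, other scalings and filters, DESeq2 1.42.0 and limma-voom 3.58.1. Replicates differed by more than sampling noise (chi-square of 3.91 to 8.98 for each degree of freedom). On simulated data the first fit over 18689 genes recovered 63.5% of 74 planted 1.5-fold changes and made 7 false calls. The KLK3-scaled fit over 18688 genes recovered 54.1% and made 13. The simulation left 18493 of 18689 genes unchanged, KLK3 among them, whereas 64.8% of tested genes were called in the data. Its recovery and false calls therefore need not hold for these data. Figures and sequence searches used Python 3.11.15 with Biopython 1.88. Limits from a count of 0 cover counting error only.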

Additional observations from a re-analysis of the deposited data

How the results depend on the processing

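The calls for KLK1, KLK2, KLK3, KLK4 and KLKP1 kept their direction and significance under all 14 alternatives, and KLK15 was called in none. Across these, the log2 fold change ran from -1.01 to -0.88 for KLK3, -0.69 to -0.54 for KLK2, 0.47 to 0.65 for KLK4, -2.50 to -2.27 for KLK1 and -0.84 to -0.71 for KLKP1. Total count scaling moved the median of all tested genes to -0.08 and gave 5208 higher and 7094 lower genes, against 6173 and 6150. With no filter, and by DESeq2, 5 kallikreins were lower, the added one being KLK12. Divided by exon length, the KLK3 share of kallikrein counts was 80.4% in the parental and 63.5% in the Enz-R group, and the KLK4 share 14.2% and 31.2%. The KLKP1 value relative to KLK2 in place of KLK3 was -0.16 and not called. Inhibitor genes called lower numbered 1 or 2 and neighbours called lower 1 to 3. With at least 50 counts required, KLK14 was not tested. Replicate numbers did not pair the libraries, since deviations of same-numbered libraries correlated at 0.0528, -0.0113 and 0.0122, and not every library correlated best with its own number. A replicate block gave 6179 higher and 6158 lower genes and 0.56 for KLK4, and the mean difference of same-numbered libraries gave 1.48 for KLK4/KLK3. At these depths KLK5, KLK10 and KLK11 could not be compared.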

Other observations

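Other trypsin-like serine proteases of epithelia were also counted. Of 12 listed, all tested, 5 were higher, 6 lower and 1 not called by edgeR, with a median log2 fold change of -0.14, against 32.4% higher and 32.3% lower over all tested genes. TMPRSS6, called higher, passed the count filter only through the Enz-R group, and TMPRSS4, called lower, only through the parental group. TMPRSS2 fell from 1408 ± 54.9 to 331 ± 15.7 CPM (-2.09 ± 0.07) and PRSS27 from 32.1 ± 0.482 to 18.4 ± 0.512 CPM (-0.80 ± 0.07). PRSS23 rose from 2.74 ± 0.204 to 7.27 ± 0.128 CPM (1.41 ± 0.15) and PRSS22 from 8.73 ± 2.12 to 18.4 ± 3.14 CPM (1.06 ± 0.16).

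Over the 6 libraries the protein-coding genes whose log2 CPM correlated best with KLK3 were ZMIZ1, PPRC1 and HOMEZ (Pearson r of 0.9996, 0.9995 and 0.9991). For KLK4 they were SERTAD3, EML2 and CCDC159 (0.9993, 0.9986 and 0.9982), all on chromosome 19. Of the 1052 tested protein-coding genes of that chromosome 536 were called higher and 238 lower. Whether location bears on these correlations was not tested. The libraries form 2 groups that most genes separate. Of 10903 genes, 3491 correlated with KLK3 and 2148 with KLK4 at over 0.9, so these correlations mainly describe the direction of change.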
